A study of Homo sapiens with 7 samples.

Results

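Nuclear receptors are transcription factors of a single protein family, most of which are switched by small fat-soluble ligands such as steroids, retinoids, thyroid hormone, vitamin D, oxysterols and fatty acids. This report concerns 45 genes of that family in the colon carcinoma cell line HCT116, an established human line, out of 20423 genes with a value in the study's RNA file. The genes were taken by name from a list of the family, and all 45 were present in the file under those names. They were divided by mode of action into 5 steroid receptors, 3 retinoid X receptors (RXRs), 14 receptors that pair with an RXR, and 23 remaining receptors, called orphan receptors here, most of which have no agreed natural hormone.

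The study mapped piggyBac transposon insertions made in HCT116 by the wild-type transposase (3 libraries) and by a fusion of the transposase to the transcription factor SP1 (2 libraries), with 1 SP1 ChIP-seq peak list and 1 RNA-seq library of polyA RNA. The RNA library, the only sample used here, is labelled simply as HCT116, with no treatment, time or genotype named. The growth protocol shared by all samples names McCoy 5A medium with fetal bovine serum, and does not say whether the serum was stripped of hormones. It also names the drug G418 for selecting cells with a transposon, and does not say whether the cells used for RNA were selected. Peaks and insertions were placed on the hg18 build. Gene coordinates of that build were not used here, so neither was tied to these genes.

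Steroid receptors bind DNA as pairs of the same receptor and sit with heat shock proteins until a hormone arrives. The RXRs are the common partner of the receptors for thyroid hormone, retinoic acid, vitamin D, fatty acids, oxysterols, bile acids and foreign compounds, and such pairs can hold a corepressor until ligand exchanges it for a coactivator. In the gut, the vitamin D, bile acid, fatty acid and glucocorticoid receptors are known for their parts in transport, metabolism and the response to hormones.

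Expression was deposited as RPKM, a read level scaled to transcript length in kb and to the mapped reads of the library. With 1 library there was no replicate, so no test, error or interval stands behind any level, and the order of genes with close values is not established. The depth was not given, but the values carried a trace of it. Among 1180 genes above 0 whose whole span is under 3000 bp, RPKM multiplied by length in kb was most often near 0.0429, called 1 step here. Within 5% of that value lay 94 genes, a pile that follows from how the value was chosen. Another 44 lay within 5% of 2 steps and 24 within 5% of 3 steps, against 9 and 10 at 1.5 and 2.5 steps. At 0.5 steps, where a 5% window is narrower, there were 8. If such a step is 1 read, 1 RPKM stands for about 23.3 reads per kb of transcript. Levels of at least 1 RPKM are called detected below.

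Markers of epithelium in general were present, and those more particular to intestine were not. Of 8 markers listed for colon epithelium 5 were detected, from CDH1 at 17.0 to KRT19 at 543 RPKM, all shared by many epithelia. The intestinal genes VIL1 and CDH17 stood under 0.05 and LGALS4 was listed at 0. None of 4 blood, 3 endothelial and 3 liver markers was detected, with PTPRC, APOB and TTR listed at 0. Of 4 fibroblast markers COL1A1 alone was detected, at 14.5 RPKM, while DCN was listed at 0. A value of 0 needs care in this file: genes that nearly every cell expresses, among them RPS14 and RPL10 of the ribosome, EIF4E and EIF4A2 of translation initiation, and YWHAZ, were also listed at 0. These 5 were picked after their values had been seen. Members at 0 are therefore described only as listed at 0.

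Nearly equal numbers of receptors lay above and below the detection limit. Of the 45 receptors 23 (51.1%) were detected, close to the 57.0% of all genes, and 16 (35.6%) reached at least 10 RPKM, a level that 24.4% of all genes reached. Another 12 lay above 0 but under 1 RPKM, and 10 (22.2%) were listed at 0, against 16.6% of all genes. The median member stood at 1.33 RPKM, under the median of all genes at 1.91, but this direction rests on the values of 0. With members and genes at 0 left out, the median member turned from percentile 45.8 to 66.0 of the ranked genes. The median of the detected members was 13.0 RPKM against 7.83 for all detected genes. Fewer expressing cells and less RNA per expressing cell cannot be told apart in such a bulk value.

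The top of the family was steep. NR1D1 at 70.9 RPKM (rank 772 of all genes) and NR2F6 at 52.3 (rank 1099) together made up 32.0% of the family's summed RPKM of 385. Below them 14 members lay between 10 and 24 RPKM, drawn from RXRs, their partners and orphan receptors alike. Another 7 members fell between 1 and 10 RPKM. There was no gap at 10 RPKM, as NR2C2 stood at 10.2 and NR2C1 at 9.90. The detection limit separated NR3C1 at 1.33 RPKM, about 31.1 reads per kb at the estimated depth, from ESRRB at 0.584, about 13.6 reads per kb.

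**Figure D1:**
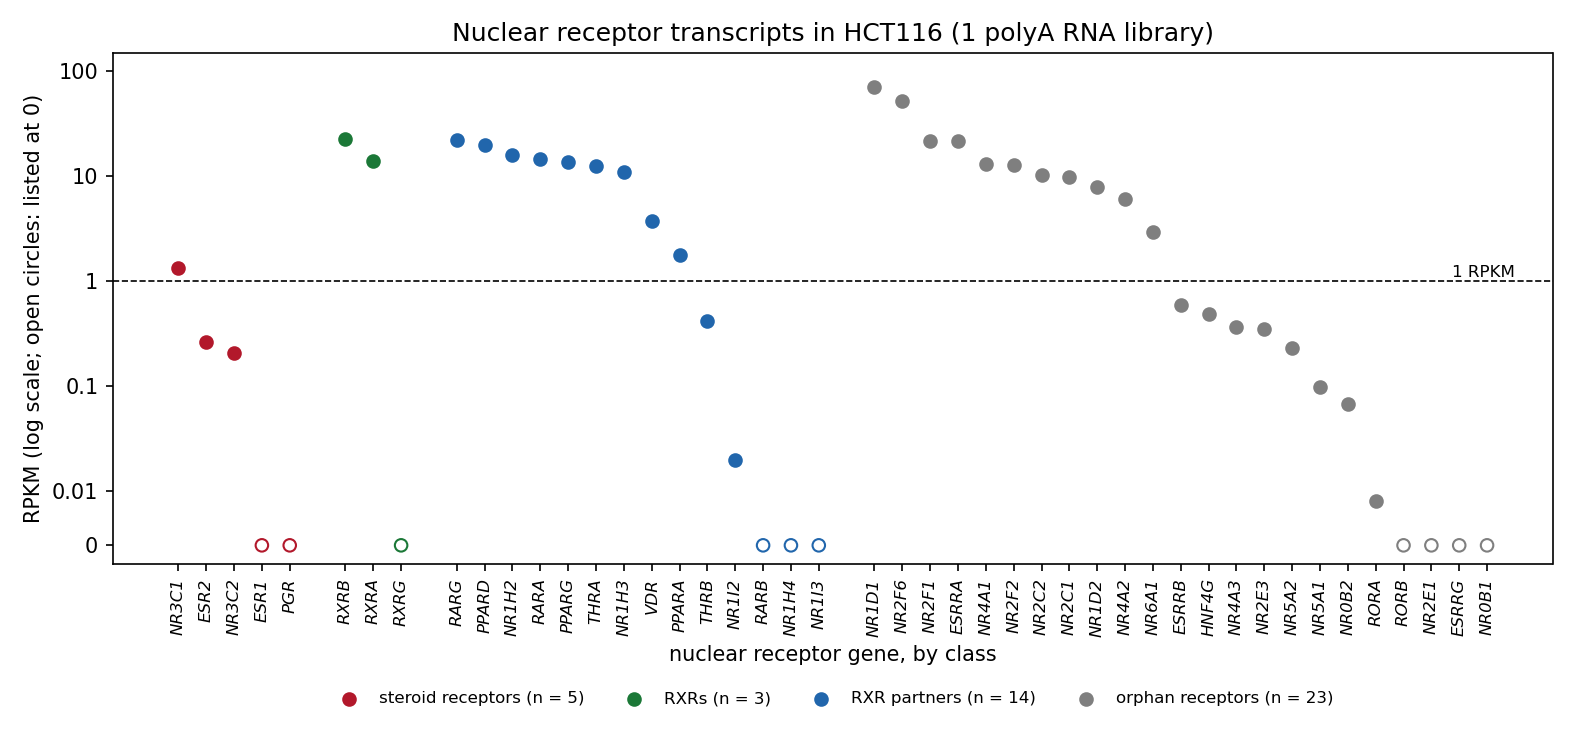
RPKM of each of the 45 nuclear receptor genes on a log axis, grouped by class and ordered by level, 1 point per gene from 1 library, with open circles for genes listed at 0 and a dashed line at 1 RPKM. NR3C1, at 1.33 RPKM, is the only steroid receptor above the line, while 9 of 14 RXR partners lie above it and NR1D1 is highest at 70.9.

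**Figure D2:**
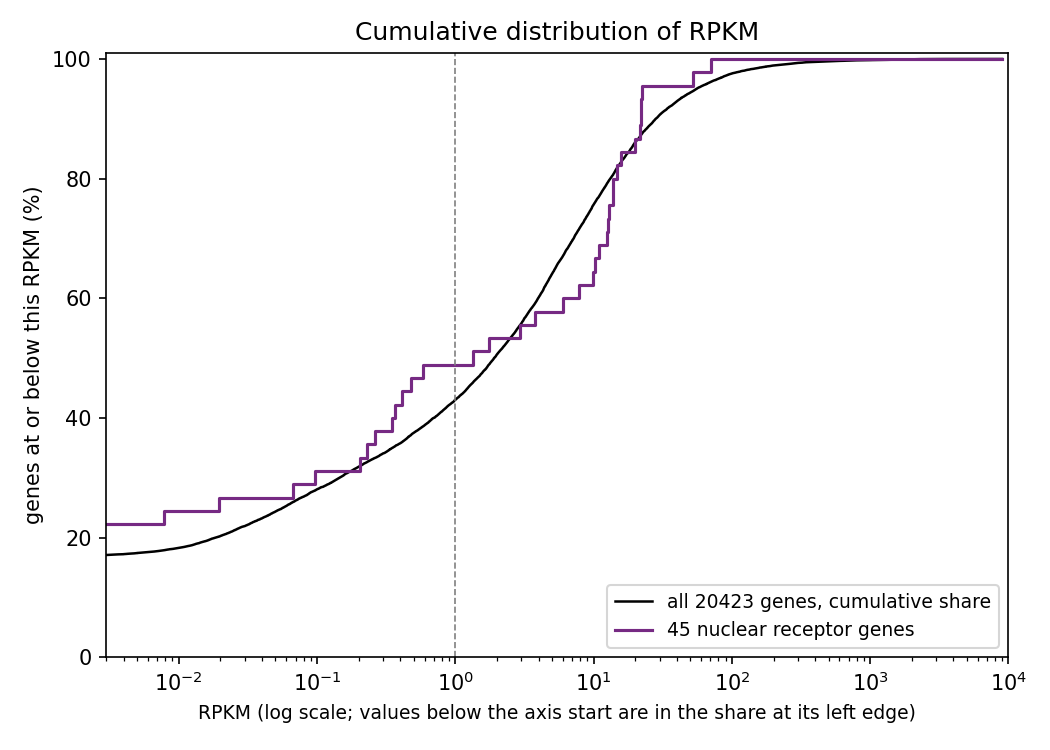
Cumulative share of genes (%) at or below each RPKM (log axis) for all 20423 genes (black) and the 45 receptors (purple), 1 library. The purple line starts higher, with 22.2% of receptors against 16.6% of genes listed at 0, and crosses under the black line because 35.6% of receptors against 24.4% of genes reach 10 RPKM.

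Promoter sequence was set beside these levels because SP1, the factor the study followed, is known to bind the GC box. RefSeq promoter windows of the GRCh38.p14 build, from 250 bp before to 50 bp after a transcription start, were matched by symbol to 40 of the 45 members, with 94 windows in all. The members not matched were HNF4G, NR0B2, NR2F6, NR4A2 and VDR. The GC box was searched as GGGCGG on both strands, overlapping matches counted. It was in 60.5% of 43 windows of detected members and 41.2% of 51 windows of the others, against 68.3% and 40.6% of windows of all genes at those levels. Counted by gene, 16 of 20 detected members (80.0%) and 13 of 20 others (65.0%) had a window with a GC box, against 79.8% and 47.7% of all genes. Members had a median of 2 windows per gene and all genes 1, which raises the share counted by gene. A match is a run of letters and not a measured SP1 site.

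The 6 windows below, from members with a single window, show the range of this sequence beside level. Only the 250 bases before the start are printed, 5′ to 3′ on the strand of the gene, with GC boxes on either strand in capitals. NR1D1 is the highest member, RARG the highest RXR partner, ESRRA and THRA hold many GC boxes, NR2C1 is detected without a GC box, and NR1H4 is listed at 0 and has none.
NR1D1, chr17:40100590-40100839, minus strand: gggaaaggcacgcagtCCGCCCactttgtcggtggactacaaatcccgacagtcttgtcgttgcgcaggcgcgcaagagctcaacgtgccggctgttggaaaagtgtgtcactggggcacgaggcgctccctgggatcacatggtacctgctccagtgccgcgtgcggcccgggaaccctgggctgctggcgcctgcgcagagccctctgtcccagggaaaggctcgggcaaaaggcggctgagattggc
RARG, chr12:53232210-53232459, minus strand: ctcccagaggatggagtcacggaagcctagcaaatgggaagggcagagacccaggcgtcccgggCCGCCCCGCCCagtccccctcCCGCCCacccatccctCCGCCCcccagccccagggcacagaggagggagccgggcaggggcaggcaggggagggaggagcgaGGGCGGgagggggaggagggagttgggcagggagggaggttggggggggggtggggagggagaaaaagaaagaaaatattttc
ESRRA, chr11:64305274-64305523, plus strand: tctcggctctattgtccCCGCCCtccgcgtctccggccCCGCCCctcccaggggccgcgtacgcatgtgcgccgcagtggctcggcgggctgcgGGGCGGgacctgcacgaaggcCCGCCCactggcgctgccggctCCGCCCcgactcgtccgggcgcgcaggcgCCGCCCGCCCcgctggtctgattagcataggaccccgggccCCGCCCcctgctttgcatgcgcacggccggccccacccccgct
THRA, chr17:40062715-40062964, plus strand: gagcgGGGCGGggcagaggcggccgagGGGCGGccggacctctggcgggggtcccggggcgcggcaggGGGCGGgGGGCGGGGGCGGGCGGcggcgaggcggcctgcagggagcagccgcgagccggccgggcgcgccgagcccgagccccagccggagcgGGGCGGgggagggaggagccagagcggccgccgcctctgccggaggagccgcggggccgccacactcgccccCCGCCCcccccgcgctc
NR2C1, chr12:95073619-95073868, minus strand: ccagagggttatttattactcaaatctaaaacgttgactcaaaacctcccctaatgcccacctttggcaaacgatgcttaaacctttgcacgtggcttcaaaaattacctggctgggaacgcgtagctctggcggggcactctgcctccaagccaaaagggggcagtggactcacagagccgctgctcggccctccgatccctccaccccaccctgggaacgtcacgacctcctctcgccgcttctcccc
NR1H4, chr12:100503110-100503359, plus strand: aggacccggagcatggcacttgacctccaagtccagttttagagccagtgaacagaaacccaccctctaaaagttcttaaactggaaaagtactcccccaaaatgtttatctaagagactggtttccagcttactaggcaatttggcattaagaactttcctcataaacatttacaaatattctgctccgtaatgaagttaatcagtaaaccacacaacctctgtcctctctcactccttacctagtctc

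The number of GC boxes differed widely among genes of like level. THRA, at 12.6 RPKM, had 9 GC boxes in its window, 8 of them in the bases shown, and a G and C share of 86.3%. ESRRA, at 21.5 RPKM, had 8, and RARG, at 22.1, had 5. NR1D1, the highest gene of the family, had 1. NR2C1, at 9.90 RPKM, had none, as was so for NR2F1 at 21.9 in its 2 windows, PPARG at 13.8 in its 6 windows and NR6A1 at 2.93. In the other direction ESR2, at 0.262 RPKM, had a window with 8 GC boxes, and PGR, listed at 0, had a window with 4. The window of NR1H4 was poor in G and C, at 41.7%.

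**Figure D3:**
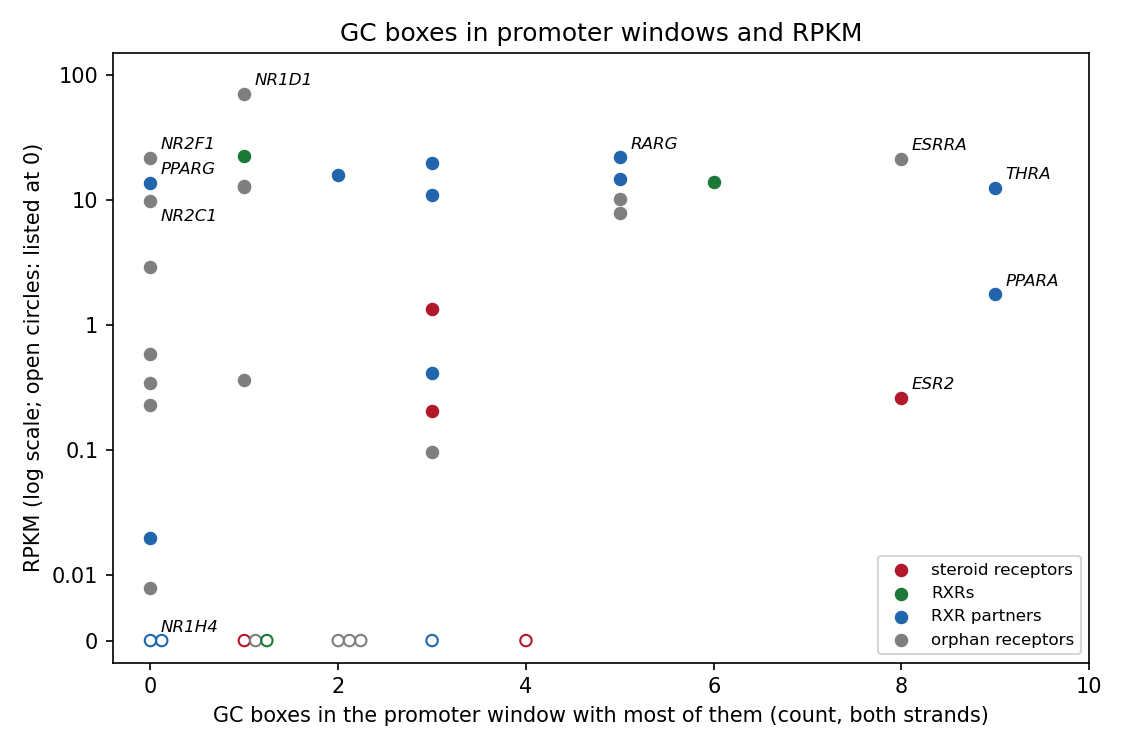
RPKM (log axis, open circles for genes listed at 0) against the count of GC boxes in the promoter window of each gene with most of them, for the 40 receptors with a window, coloured by class, 1 library; open circles at the same count are shifted right to keep them apart. Genes with no GC box run from NR2F1 at 21.9 RPKM down to NR1H4, listed at 0, and those with 8 or 9 run from ESRRA at 21.5 down to ESR2 at 0.262.

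The core letters of the site that many nuclear receptors bind, AGGTCA, were searched in the same windows on both strands. They were in 16 of 94 member windows (17.0%), against 11.5% of windows of all genes. By gene, 3 of 20 detected members held the motif, namely RARA, PPARG and NR1H3, against 8 of 20 members under 1 RPKM. For all genes the shares were 13.4% at 1 RPKM or more and 17.6% below. Members again had more windows per gene, and counted by window the gap was narrower, at 11.6% of windows of detected members and 21.6% of the others, against 10.1% and 13.9% for all genes. The window of NR1H4 held it on the reverse strand, while those of NR1D1, RARG, ESRRA, THRA and NR2C1 did not hold these letters.

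Steroid receptors were the weakest class, with a median of 0.205 RPKM. NR3C1, the glucocorticoid receptor, was the only 1 of the 5 (20%) detected, against 57.0% of all genes. It stood at 1.33 RPKM (rank 11062). NR3C2, the mineralocorticoid receptor, stood at 0.205 RPKM, 6.50 times lower. ESR2, the beta form of the oestrogen receptor, stood at 0.262 RPKM. ESR1, the alpha form, and PGR, the progesterone receptor, were listed at 0. Together the 5 made up 0.468% of the family's summed RPKM.

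Transcripts of the chaperones that keep steroid receptors ready for hormone were all detected. The 6 genes had a median of 63.2 RPKM, led by HSP90AB1 at 351, STIP1 at 92.4 and HSP90AA1 at 86.6. FKBP5, a cochaperone gene that is itself a glucocorticoid target, was the lowest at 19.5. Of 7 steroid receptor target genes 5 were detected, where 57.0% of all genes were. PER1 at 23.5, TSC22D3 at 14.4 and DUSP1 at 5.77 RPKM are known glucocorticoid targets and were the highest, while SGK1 stood at 0.294. Among oestrogen receptor targets GREB1 was at 1.21 and TFF1 was listed at 0. All of these genes also answer to other signals, and no hormone was given or withheld here.

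Of enzymes that set the steroid supply, HSD11B2, which inactivates cortisol, was at 6.63 RPKM. HSD11B1, which regenerates cortisol, was listed at 0, and CYP19A1, which makes oestrogens, was at 0.135.

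Of the RXRs, the shared partners, RXRB and RXRA were detected and RXRG was listed at 0. RXRB stood at 22.5 RPKM (rank 2545) and RXRA at 13.9 (rank 3935), so RXRB was 1.62 times higher. Both were among the 14 members between 10 and 24 RPKM. The summed RPKM of the 14 partner genes was 116, which is 3.18 times that of the 3 RXR genes at 36.4. These sums run over unlike numbers of genes, and the class median was lower for partners, at 7.36 RPKM against 13.9.

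Of the 14 RXR partners 9 (64.3%) were detected, near the 57.0% of all genes. The class median was 7.36 RPKM, and 12.6 without the 3 members listed at 0. The retinoic acid receptors RARG and RARA were at 22.1 and 14.7 RPKM, and RARB, itself a known retinoic acid target, was listed at 0. The gene of the thyroid hormone receptor alpha, THRA, stood at 12.6 RPKM, 30.3 times THRB at 0.415. All 3 fatty acid receptors were detected, with PPARD at 19.9, PPARG at 13.8 and PPARA, the form best known from liver, 11.3 times lower than PPARD at 1.76.

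The oxysterol receptors NR1H2 and NR1H3 (LXR beta and alpha) stood at 15.8 and 11.0 RPKM. VDR, the vitamin D receptor, was at 3.75 RPKM (rank 8360). The receptors for bile acids and foreign compounds were not detected: NR1H4 (FXR) and NR1I3 (CAR) were listed at 0 and NR1I2 (PXR) stood at 0.0197, about 0.459 reads per kb.

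Some genes that carry or convert retinoids stood far above these receptors, though the list median was 9.15 RPKM. Of 13 listed genes 8 were detected, where 57.0% of all genes were. They were led by CRABP2, which brings retinoic acid to its receptors, at 300 RPKM, and FABP5 stood at 49.6. ALDH1A3, which makes retinoic acid, was at 45.4 RPKM, while ALDH1A1 was listed at 0 and ALDH1A2 stood at 0.0646. DHRS3, which turns retinal back to retinol, was at 39.4 RPKM. Of the enzymes that degrade retinoic acid, CYP26B1 was at 9.15 and CYP26A1, a classical target of the receptors, at 0.162.

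For vitamin D, CYP24A1, the enzyme that degrades the hormone and a classical VDR target, reached 82.7 RPKM, and CYP27B1, which makes the active form, 4.91. Genes of thyroid hormone supply were low: the deiodinases DIO1, DIO2 and DIO3 and the transporter SLC16A10 all lay under 1 RPKM. Over the whole list for vitamin D, thyroid hormone and steroid supply 4 of 12 measured genes were detected, against 57.0% of all genes. The list median was 0.402 RPKM. CH25H was not matched.

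Targets of the lipid receptors were mixed. Of 8 LXR and FXR targets 4 were detected. Beside this count and those below, 57.0% of all genes were detected. SREBF1, the regulator of fatty acid synthesis, stood at 71.9 RPKM, while the cholesterol exporters ABCG1 and ABCA1 stood at 1.43 and 0.177. FGF19, an intestinal FXR target, was at 20.5 RPKM beside NR1H4 at 0, and ABCB11, the bile salt export pump, was listed at 0. Of 7 PPAR targets 4 were detected, led by CPT1A of fatty acid oxidation at 16.1, the lipid droplet gene PLIN2 at 13.1 and ANGPTL4 at 12.9, while FABP1 was listed at 0 and PDK4 stood at 0.162. None of the 3 PXR and CAR targets was detected, with ABCB1 at 0.167, CYP2B6 at 0.0421 and CYP3A4 at 0.0310 RPKM, beside their receptors at 0.0197 and 0.

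**Figure D4:**
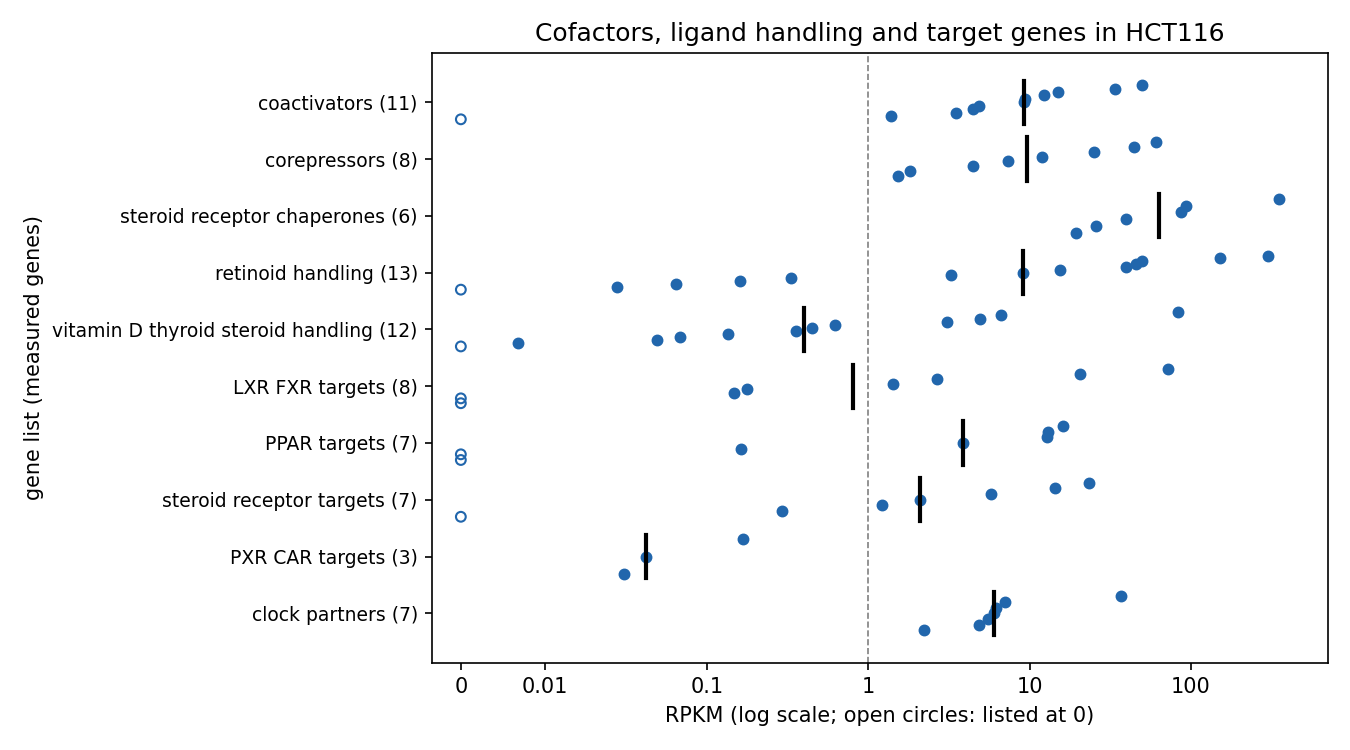
RPKM (log axis, open circles at 0) of the measured genes in 10 lists of cofactors, chaperones, ligand handling and target genes, 1 point per gene from 1 library, with the number of measured genes in brackets, a black bar at each median and a dashed line at 1 RPKM. All chaperones, corepressors and clock genes lie above the line, and all 3 PXR and CAR targets lie below it.

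Orphan receptors, 23 of the 45 members, spanned the whole range and made up 60.0% of the family's summed RPKM. Of the 23, 11 (47.8%) were detected, against 57.0% of all genes, and 4 were listed at 0, against 16.6% of all genes. NR1D1, a haem-binding repressor of the circadian clock also called REV-ERB alpha, was the highest receptor of all at 70.9 RPKM, 8.99 times its relative NR1D2 at 7.88. Its gene overlaps THRA on the opposite strand, and how reads from the overlap were assigned is not stated. RORA and RORB, activators known to compete with the NR1D proteins for the same DNA sites, stood at 0.00787 and 0 RPKM. All 7 other clock genes on the list were detected. DBP, which varies strongly over the day in tissues, was at 37.0, CLOCK at 7.02 and CRY2 at 6.18, ARNTL, a known target of NR1D repression, stood at 5.53, and PER3 was the lowest at 2.22. The library is a single time point, and the state of the clock in these cells is not given.

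The NR2F group, also called COUP transcription factors, was detected in full. NR2F6 stood at 52.3 RPKM, 2.39 times NR2F1 at 21.9 and 4.12 times NR2F2 at 12.7. The related NR2C2 and NR2C1, the testicular receptors, were nearly level at 10.2 and 9.90 RPKM. NR2E3, known from photoreceptors, was at 0.347, NR2E1, known from neural stem cells, was listed at 0, and HNF4G was at 0.482.

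ESRRA, a regulator of mitochondrial and energy genes, stood at 21.5 RPKM, 36.8 times ESRRB at 0.584, and ESRRG was listed at 0. PPARGC1A, the coactivator best known for working with ESRRA and PPARG, was also listed at 0. Its relatives PPRC1 and PPARGC1B stood at 33.6 and 1.38. Of the NR4A genes, which are induced quickly by growth and stress signals, NR4A1 was at 13.0, NR4A2 at 6.02 and NR4A3 at 0.367 RPKM. NR6A1, known from germ cells and early embryos, was at 2.93.

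Members of the NR5A and NR0B groups were not detected. NR5A2, which acts in liver, pancreas and intestinal crypts, stood at 0.230 RPKM and NR5A1, the steroidogenic factor, at 0.0970. NR0B2 and NR0B1, which lack the usual DNA-binding domain and repress other receptors, stood at 0.0675 and 0.

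Most general cofactor genes of the family were detected. Of 11 coactivator genes 10 were detected, with a median of 9.21 RPKM, led by CARM1 at 49.7, PPRC1 at 33.6 and EP300 at 15.0. All 8 corepressor genes were detected, with a median of 9.61, with GPS2 at 60.9, HDAC3 at 44.1 and NRIP1 the lowest at 1.53. Over all 10 lists 56 of 82 measured genes (68.3%) were detected, against 57.0% of all genes. The lists were drawn up with earlier results of these data known, so nothing is read from that gap.

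Detection was also compared among close relatives, in 17 groups of 2 or 3 genes each. In 5 groups every gene was detected, namely the PPARs, the LXRs, NR1D, NR2C and NR2F. In 6 groups only some were, and in 6 (NR1I2 with NR1I3, ROR, NR2E, the oestrogen receptors, NR5A and NR0B) none was. VDR, which was detected, was not placed in any of these groups. Of all genes 57.0% were detected, and no like grouping was made for them, so nothing is read from these counts.

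Some values may be shared with a neighbour. In the GRCh38.p14 annotation 10 members overlap another coding gene with a value in the file, and 6 of these members were detected. THRA and NR1D1 overlap each other on opposite strands, as do NR1H3 with ACP2 (13.1 RPKM), NR1D2 with NKIRAS1 (2.12), NR2C2 with MRPS25 (12.3) and ESRRA with TRMT112 (172). Among the members below 1 RPKM the overlapping pairs were ESR1 with SYNE1 (0.716), RARB with TOP2B (5.42), NR1I3 with TOMM40L, which was also listed at 0, and NR0B2 with NUDC (70.5). How strand was treated in counting is not stated, and the share of reads that came from the overlaps was not tested.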

How the data were processed

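One polyA RNA-seq library of HCT116 cells was analysed. Per the deposited readme, reads were aligned to hg18 with TopHat and the authors computed RPKM per RefSeq gene with Cufflinks, for which the submitters' processing notes give version 1.1.0. The sources used here give no filters, strand handling or depth. Each symbol occurred once, so summing repeated symbols was not needed. Levels were used as deposited, and no count model, test or interval was computed. Detected means at least 1 RPKM. Ranks run over all 20423 genes. The members, classes and lists were chosen with earlier results of these data known. Every member is named. Of each list the 3 highest genes and the lowest are named, as are partners of a receptor discussed beside it, except for a few genes that are not reported here by name. Symbols absent from the file were sought through older names, which matched 82 of 83 listed genes. Promoter windows and gene overlaps came from RefSeq tables of GRCh38.p14. The depth estimate took the most frequent product of RPKM and gene span in genes under 3000 bp. It was chosen after seeing the data, and it and the motif search were tested on simulated data. Python 3.11.15 and pandas 2.3.3 were used. Insertion and peak files were not used.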

Additional observations from a re-analysis of the deposited data

How the results depend on the processing

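Counts of detected members moved little with the threshold, from 23 at 1 RPKM to 24 at 0.5 and 19 at 5, and the class counts stayed within 1.5 times except in the steroid class, where NR3C1 fell out at 5 RPKM and left 0 of 5. Without the 10 members that overlap another coding gene, 17 of the remaining 35 members were detected. This alternative was added after the data had been seen. The orphan count fell from 11 to 7, as the detected genes NR1D1, NR1D2, NR2C2 and ESRRA were among those left out. Medians moved as their makeup was changed. With members at 0 left out they were 0.262 RPKM for steroid receptors, 18.2 for RXRs, 12.6 for RXR partners and 6.02 for orphans, the last against 0.584 over all orphans. Without overlapping members they were 0.234 for steroid receptors, 8.77 for RXR partners and 0.425 for orphans. With the RXRs counted among their partners the partner median was 11.0, and with NR4A1 and NR4A2 counted there it was 8.49, with 0.482 left for orphans. The median member stood at percentile 45.8 of all genes and at 66.0 when members and genes at 0 were left out of the ranking, which turns it from below to above the middle gene. On the log2(RPKM + 1) scale the median member lay at -0.32 relative to the median gene, and at -0.48 with a pseudocount of 0.1. No paired analysis was possible because the RNA group has a single library. At the estimated depth of 23.3 reads per kb for 1 RPKM, members under 0.05 RPKM rest on about 1 read per kb or fewer.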
